A study of Danio rerio with 30 samples.

Results

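Osteoblasts lay down the collagen matrix of bone and mineralise it, and osteoclasts dissolve it again. The expression of 10 genes used as markers of these cells was followed in zebrafish heads from the larval to the juvenile stage. They were the transcription factors runx2a, runx2b and sp7, the matrix proteins sparc, spp1 and bglap, the mineralisation enzymes entpd5a and phex, and the osteoclast enzymes ctsk and acp5a. The genes were taken by symbol, 1 probe set each, and all 10 were among the 19298 named genes on the array.

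The tissue was labelled as everything anterior to the gills of AB strain fish, which makes each sample by its label a whole head with bone as a small part of it. Control fish (SC) had received a standard control morpholino against human beta-globin, and knockdown fish (KD) a morpholino against the splice donor site of grb10a coding exon 3. A morpholino is an antisense oligonucleotide injected once into the early embryo, and the injection mix of both groups also held phenol red and nCerulean mRNA as a tracer. Grb10 is an adaptor protein that binds the insulin receptor and dampens its signalling. A second morpholino, at coding exon 4, appears in the protocol text, but the design names the exon 3 one for these arrays. Heads were taken 5 days post fertilisation (dpf) and again at 10, 15, 20 and 30 dpf, with 3 arrays per group, 30 in all, and each array held RNA pooled from 5 fish. Embryos with weak or uneven tracer fluorescence had been removed, and how long the single injection acted in these fish is not recorded in the labels. A p-value measured the spread between pools, and whether the pools came from separate clutches or injections was not stated.

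Most bones of the zebrafish skull form directly from mesenchyme, and the opercle of the gill cover is among the earliest to mineralise. Runx2 commits mesenchymal cells to the osteoblast lineage, Sp7 (osterix) acts after it, and matrix genes follow, with osteocalcin (bglap) a marker of the mature cell in mammals. Osteoclasts come from the myeloid lineage and secrete acid and proteases onto the bone surface. In larval zebrafish the osteoclasts that appear early are mostly mononucleated.

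Signals are given on the log2 scale of the deposited values, on which a difference of 1 is a doubling, and levels were not compared between genes because each probe set has its own brightness. The lowest 33.3% of genes by mean signal lay below 6.06. Folds that start below this value may be understated, which concerned chiefly runx2b, bglap and acp5a. Narrowly below it were also sp7 (6.03) and entpd5a (6.05) in the 10 dpf controls. In the knockdown heads this held for entpd5a at 10 dpf (6.0) and ctsk at 5 dpf (6.04). The arrays had median signals of 5.51 to 5.63, and replicates correlated at 0.952 to 0.983 across all probe sets. The mean signal of pancreas, liver and intestine genes was 9.17 to 9.23 in the 5 dpf controls, against 5.16 to 6.88 in the other 9 groups, the 5 dpf knockdown heads (5.34 to 6.0) among them. Whether the 5 dpf control pools held tissue from behind the gills was not tested. The targeted gene grb10a read 8.05, 8.21 and 8.03 in the 5 dpf controls and 9.28, 9.10 and 8.95 in the 5 dpf knockdown heads. That was 2.01-fold higher with the knockdown (limma adjusted p = 3.6e-07), and at 10 to 30 dpf its difference lay between -0.24 and 0.33 with no adjusted p under the threshold of 0.05. Where its probes lie relative to the blocked splice site was not given, so this signal checked neither the splicing nor the labels.

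All 10 genes rose from 5 to 30 dpf in the controls, where 34.1% of all genes rose and 51% moved in either direction. Their median rise was 1.68 on the log2 scale, against 0.13 over all genes. In the knockdown heads all 10 rose as well, where 30.6% of all genes did, with a median of 1.33 against 0.05. The osteocalcin, osteopontin and entpd5a signals rose most, by 17-fold, 12.8-fold and 9.73-fold in the controls. Because whole heads were sampled, more cells of a type and more RNA per cell cannot be told apart. Arrays of different ages may also differ by handling, which the labels do not give, so age and handling cannot be told apart either. Counted from 10 dpf, which leaves out the 5 dpf arrays with their visceral signal, all 10 also rose in the controls (34.8% of all genes) and in the knockdown heads (26.9%). The rise from 5 to 30 dpf was not particular to these genes. Of 13 fibroblast genes, 13 rose in the controls (median 1.57) and 12 in the knockdown heads (median 1.6).

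**Figure D1:**
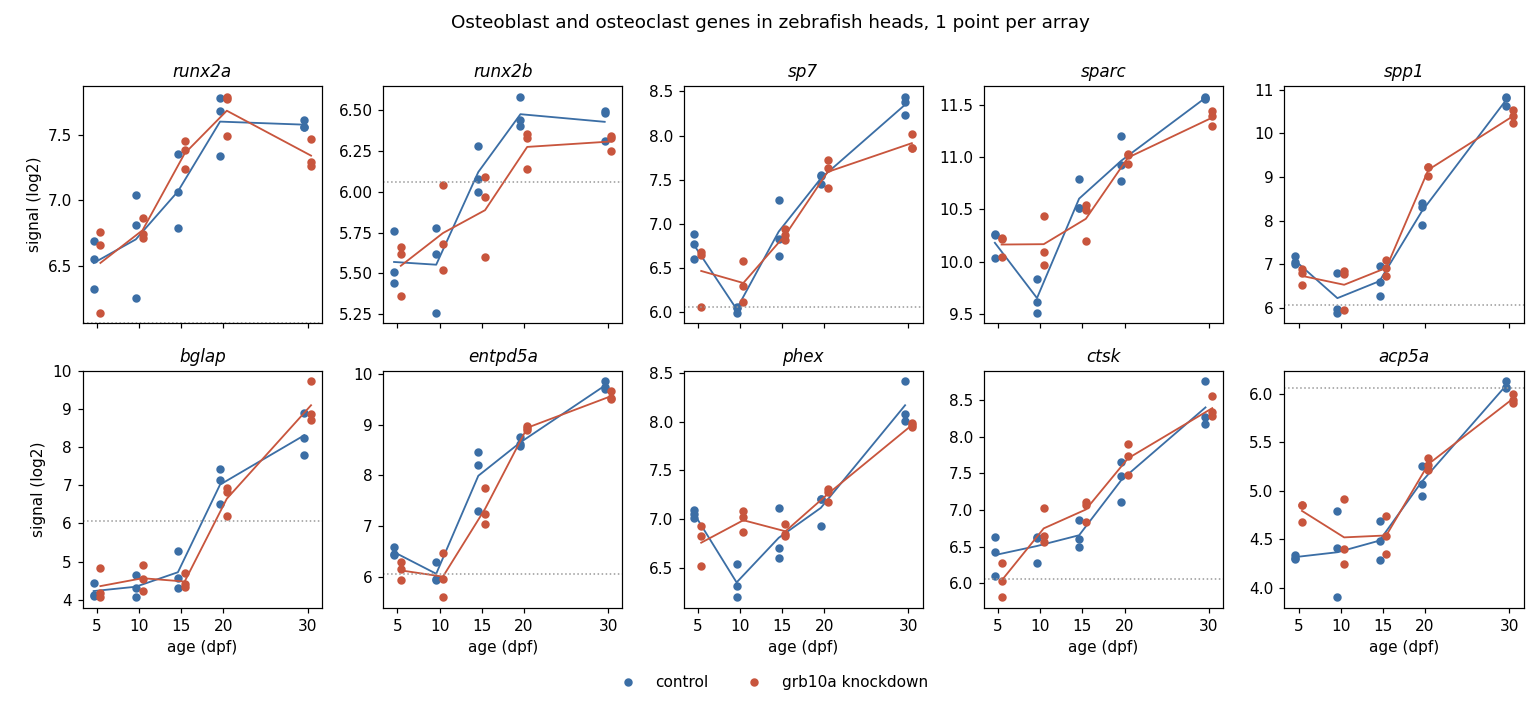
Log2 signal (vertical axis, a different range in each panel) against age in days post fertilisation for the 10 genes, with 1 point per array, control in blue and knockdown in red, and lines through the group means. The dotted line marks 6.06. Every gene ends higher than it starts, bglap stays below the dotted line until 15 dpf, and spp1 is higher in all 3 knockdown arrays at 20 dpf.

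Step by step, the genes did not all move at once. From 5 to 10 dpf in the controls 4 fell (sp7, spp1, sparc and phex) and 0 rose, where 14.7% of all genes fell, 13.8% rose and 28.5% did either. The visceral signal of the controls also dropped over this step, from 9.17 to 9.23 at 5 dpf to 5.19 to 5.2 at 10 dpf. Its part in the 4 falls was not tested. From 10 to 15 dpf 5 rose (13.9% of all genes rose, 10.7% fell, 24.6% either), from 15 to 20 dpf 7 rose (8.36% rose, 4.05% fell, 12.4% either) and from 20 to 30 dpf 8 rose (22% rose, 9.48% fell, 31.5% either). None fell in these 3 steps. With single arrays left out, the control rise of runx2a to 20 dpf was lost in 4 of 6 fits and that of phex to 15 dpf in 2 of 6 (without replicate 3 of 10 or of 15 dpf).

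With the knockdown, 1 gene rose from 5 to 10 dpf and no fall passed, where 5.35% of all genes rose, 2.91% fell and 8.25% did either. Of the 4 genes that fell in the controls, sp7 and spp1 had knockdown steps of -0.14 and -0.20, and the difference between the treatments' steps passed for phex but not for sparc (adjusted p = 0.0629), sp7 (0.0903) or spp1 (0.193). The later steps held 3 rises to 15 dpf (5.56% rose, 1.43% fell, 6.99% either), 8 to 20 dpf (13.2% rose, 12.2% fell, 25.4% either) and 5 to 30 dpf (7.19% rose, 4.41% fell, 11.6% either). Among the knockdown rises, phex to 20 dpf was lost in 6 of 6 fits that left out a single array, runx2a to 15 dpf in 5 of 6 and ctsk to 30 dpf in 2 of 6 (without replicate 3 of 20 dpf or 1 of 30 dpf). The control mean at 10 dpf was the lowest of the 5 ages for sp7, spp1, sparc, entpd5a and phex.

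The runx2 genes, the earliest acting regulators, reached their 30 dpf level by 20 dpf in the controls, with no passing step after it. The signal of runx2a, whose product starts the osteoblast programme, was 6.55, 6.69 and 6.32 in the 5 dpf controls and 7.56, 7.56 and 7.61 at 30 dpf, a rise of 1.06 (SE 0.18, adjusted p = 1.71e-05). It had reached 7.60 ± 0.23 (SD, n = 3) by 20 dpf and differed from that by -0.03 at 30 dpf. With the knockdown it went from 6.52 ± 0.33 to 7.68 ± 0.16 at 20 dpf and read 7.34 ± 0.11 at 30 dpf, and the last step did not pass (-0.34, adjusted p = 0.226). Its paralogue runx2b had a probe set partly under the limit of 6.06, so its rise may be understated, with control means of 5.57, 5.55, 6.12, 6.47 and 6.43 over the 5 ages. Its only passing step was from 10 to 15 dpf in the controls (0.57, adjusted p = 0.00514), and that step missed the threshold without control replicate 2 of 10 dpf (adjusted p = 0.0534).

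Sp7, the factor that osteoblasts need to mature, first fell and then rose in the controls, whose 5 dpf arrays carried the visceral signal. The control arrays read 6.77, 6.60 and 6.88 at 5 dpf, 5.99, 6.06 and 6.04 at 10 dpf and 8.38, 8.44 and 8.23 at 30 dpf. The 10 dpf arrays were below all others of the controls. The fall to 10 dpf was 0.72 on the log2 scale (adjusted p = 0.000834), and the following steps were rises of 0.88, 0.60 and 0.84, which all passed. Leaving out control replicate 1 of 15 dpf ended the call for the step to 20 dpf (0.46, adjusted p = 0.0821). With the knockdown, sp7 rose from 10 to 15 and from 15 to 20 dpf, and its last step, 0.32, did not pass (adjusted p = 0.18). The earlier of these rises lost its call in 5 of 6 fits that left out a single array.

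Among the matrix genes, sparc encodes osteonectin, a collagen-binding protein that many connective tissues make. The controls averaged 10.18 ± 0.13, 9.65 ± 0.16, 10.60 ± 0.16, 10.97 ± 0.22 and 11.57 ± 0.01 (SD, n = 3) at the 5 ages. The dip at 10 dpf (-0.53, adjusted p = 0.00302) and the rise to 15 dpf (0.96, adjusted p = 6.02e-06) passed, as did the last step (0.60, adjusted p = 0.000847). The knockdown heads had means of 10.16 and 10.17 at 5 and 10 dpf.

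Osteopontin, spp1, is a phosphoprotein of mineralised matrix that osteoblasts, osteoclasts and macrophages secrete. The control arrays read 7.01, 7.05 and 7.18 at 5 dpf, 6.80, 5.89 and 5.98 at 10 dpf, 8.32, 7.89 and 8.41 at 20 dpf and 10.84, 10.63 and 10.81 at 30 dpf. The gene thus fell by 0.85 to 10 dpf (adjusted p = 0.00425) and then made its climb after 15 dpf, with steps of 1.60 to 20 dpf and 2.55 to 30 dpf. The last step was a 5.87-fold rise (adjusted p = 2.67e-09). The order of the steps was the other way round with the knockdown: 2.25 from 15 to 20 dpf and 1.22 from 20 to 30 dpf.

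Osteocalcin, bglap, is a calcium-binding protein that mature osteoblasts make in mammals. Its control arrays lay between 4.07 and 5.28 from 5 to 15 dpf, below the limit of 6.06. They read 7.13, 6.50 and 7.42 at 20 dpf and 7.80, 8.89 and 8.24 at 30 dpf. Both late steps passed in the controls, 2.30 to 20 dpf (adjusted p = 1.78e-05) and 1.30 to 30 dpf (adjusted p = 0.00172), and in the knockdown heads, 2.17 and 2.45. No step before 15 dpf passed in either group. The array annotation lists this symbol under 2 gene identifiers, so a related osteocalcin gene may share the signal.

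The mineralisation genes split in their timing. The product of entpd5a, a nucleotide-cleaving enzyme without which zebrafish do not mineralise bone, was the earliest of the strongly rising genes. Its control arrays read 5.94, 6.28 and 5.95 at 10 dpf and 7.30, 8.21 and 8.46 at 15 dpf. The arrays of these ages did not overlap, and the signal was 3.82-fold higher at 15 dpf (log2 difference 1.94, adjusted p = 3.74e-07). The later control steps were 0.66 and 1.12, of which the former (adjusted p = 0.0438) was lost in 4 of 6 fits with an array left out. The knockdown heads' rise to 15 dpf was 1.34 and the rise to 20 dpf 1.60.

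Phex, an endopeptidase of osteoblasts and osteocytes whose loss in people causes phosphate wasting and soft bones, fell before it rose in the controls. The control arrays read 7.05, 7.09 and 7.01 at 5 dpf, 6.54, 6.32 and 6.20 at 10 dpf and 8.08, 8.01 and 8.41 at 30 dpf. The fall was 0.70 on the log2 scale (adjusted p = 0.000253), and the last step, 1.05, was the largest rise (adjusted p = 1.31e-06). With the knockdown the 10 dpf mean of 6.99 ± 0.11 stood above the 5 dpf mean of 6.76 ± 0.21, a step that did not pass (adjusted p = 0.301).

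The osteoclast enzymes rose late. Cathepsin K, ctsk, the protease with which osteoclasts cut collagen, had control means of 6.39, 6.51 and 6.66 at 5, 10 and 15 dpf, neighbours that did not differ beyond their spread. It then rose by 0.75 to 20 dpf (adjusted p = 0.00664) and by 0.99 to 30 dpf (adjusted p = 0.000132), where the arrays read 8.75, 8.17 and 8.27. Without control replicate 1 of 20 dpf the former step had an adjusted p of 0.0536. It also rose in the knockdown heads from 5 to 10 dpf (0.71, adjusted p = 0.0133), a call that was lost without replicate 2 of either age.

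Acp5a, tartrate-resistant acid phosphatase, is the enzyme by which osteoclasts are stained. Its signal reached 6.06 only in the control arrays of 30 dpf, which read 6.07, 6.13 and 6.06. From 3.90 to 4.79 in the controls between 5 and 15 dpf, it rose by 0.61 to 20 dpf (adjusted p = 0.017) and by 0.99 to 30 dpf (adjusted p = 5.7e-05). The former call was lost in 3 of 6 fits with an array left out. The second gene for this enzyme, acp5b, had group means of 5.33 to 5.80 and lay under the limit in all 10 groups.

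The knockdown comparison asks whether the heads of the knockdown fish differed from the controls of the same age. At each age 0 to 2 of the 10 genes did. None of the 10 passed at 5 dpf, where 12% of all genes did (5.47% higher, 6.51% lower). At 10 dpf sparc and phex were higher (2.68% of all genes passed, 1.76% higher and 0.917% lower). At 15 dpf entpd5a was lower (12% passed, 9.18% higher and 2.84% lower), and at 20 dpf spp1 was higher (14.5% passed, 10.1% higher and 4.31% lower). At 30 dpf none of the 10 passed, and 1% of all genes did (0.363% higher, 0.637% lower). Averaged over the 5 ages none passed by limma, against 3.01% of all genes (1.62% higher, 1.39% lower). At an unadjusted p under 0.05 limma gave 2 genes at 5 dpf (acp5a and phex; 25.3% of all genes), 2 at 30 dpf (sp7 and bglap; 11.4%) and 1 for the average over ages (entpd5a; 17.4%).

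**Figure D2:**
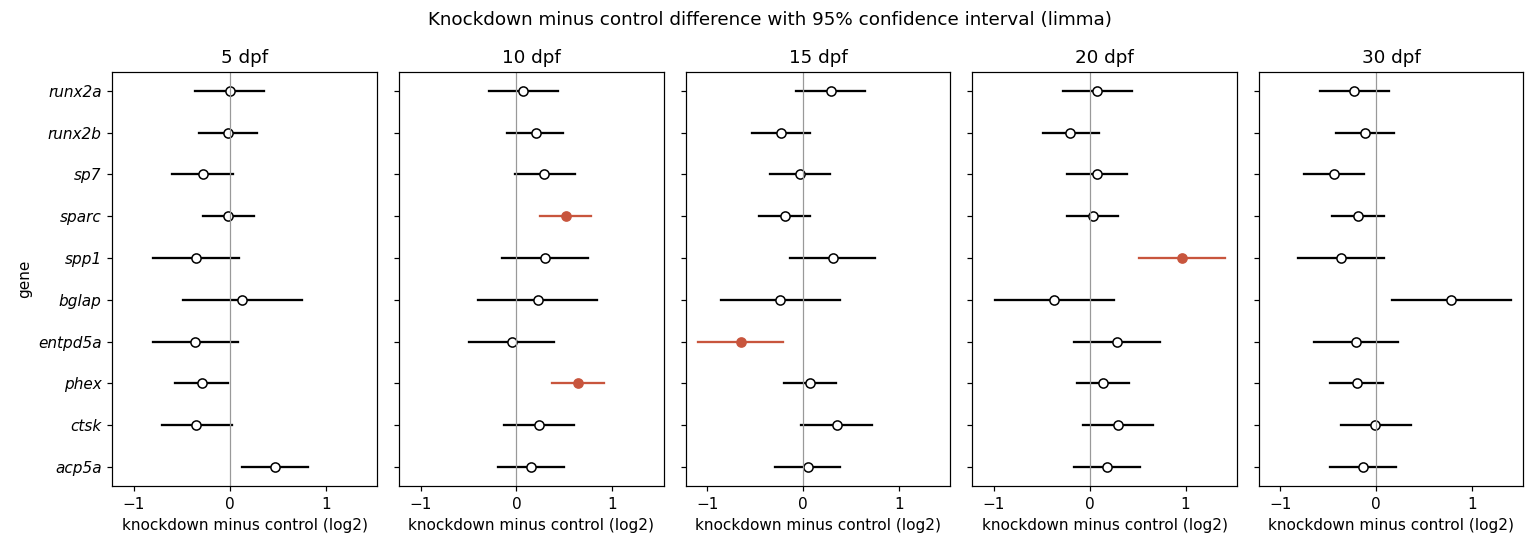
Knockdown minus control difference (log2, horizontal axis) for each of the 10 genes at each age, with the 95% confidence interval from the limma fit; filled red points passed an adjusted p of 0.05. The passing points are sparc (0.52) and phex (0.64) at 10 dpf, entpd5a (-0.65) at 15 dpf and spp1 (0.96) at 20 dpf, and at 30 dpf 9 of 10 points lie below 0.

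At 5 dpf the differences ranged from -0.36 to 0.47. The arrays of the groups did not overlap for 4 of the genes, where 28.6% of all genes had no overlap. Acp5a read 4.85, 4.85 and 4.68 with the knockdown against 4.31, 4.30 and 4.34 in the controls, a difference of 0.47 (95% interval 0.13 to 0.81, adjusted p = 0.0644), both far below the limit of 6.06. The other genes without overlap, spp1, entpd5a and phex, were lower in the knockdown heads by 0.35, 0.36 and 0.29 on the log2 scale, with adjusted p from 0.161 to 0.338. Visceral genes were high in the controls of this age, and their part in these differences was not tested.

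At 10 dpf the differences were positive for 9 of 10 genes, with a median of 0.23 against 0.04 over all genes. Sparc read 9.83, 9.51 and 9.61 in the controls and 10.09, 10.44 and 9.97 in the knockdown heads, without overlap. It was 1.43-fold higher (0.52, SE 0.13, adjusted p = 0.0281). Phex read 6.54, 6.32 and 6.20 against 7.02, 7.08 and 6.87, also without overlap, and was 1.56-fold higher (0.64, SE 0.13, adjusted p = 0.00832). Sp7 was the remaining gene without overlap, 6.03 ± 0.03 against 6.33 ± 0.24 (adjusted p = 0.342). Such separation upwards was seen in 8.49% of all genes.

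Both calls at 10 dpf depended on individual arrays. Sparc lost its call without control replicate 2 (0.45, adjusted p = 0.177) or 3 (0.50, 0.0754) and without knockdown replicate 1 (0.55, 0.0616) or 2 (0.38, 0.225). Phex lost it without control replicate 2 (0.62, adjusted p = 0.0505) or knockdown replicate 2 (0.59, 0.0672), and neither gene passed in a fit of the 6 arrays of this age alone. The mean signal of fibroblast genes stood apart in the same direction, 7.13 to 7.53 in the controls and 7.56 to 7.76 with the knockdown. Of that list 3 of 13 genes rose (1.76% of all genes): lum (lumican), col6a1 and col12a1a, all connective tissue matrix genes. Its part in the sparc and phex differences was not tested.

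At 15 dpf entpd5a read 7.30, 8.21 and 8.46 in the controls and 7.03, 7.24 and 7.74 in the knockdown heads. The groups overlapped through control replicate 1. The gene was 1.57-fold lower with the knockdown (-0.65, SE 0.21, adjusted p = 0.046), and 2.84% of all genes fell. This call held in 7 of 14 alternative fits. Among those that lost it were the fits without control replicate 2 (-0.54, adjusted p = 0.132) or 3 (-0.42, 0.26), without knockdown replicate 1 (-0.50, 0.226) or 2 (-0.61, 0.138), with arrays centred on their medians (-0.59, 0.0596) and that of these 6 arrays alone (adjusted p = 0.201). Without control replicate 1 the difference was -1.0 (adjusted p = 0.003). None of the 10 genes had arrays without overlap at this age, where 29.7% of all genes did, and the visceral signal was 5.50 to 6.15 in the controls and 6.16 to 6.88 with the knockdown.

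At 20 dpf spp1 showed the largest difference of the series for these genes. The controls read 8.32, 7.89 and 8.41 and the knockdown heads 9.03, 9.24 and 9.23, with every knockdown array above every control. The signal was 1.95-fold higher (0.96, SE 0.22, adjusted p = 0.00309), and 10.1% of all genes rose. It passed in all 14 alternative fits, with differences of 0.80 to 1.06. Entpd5a (8.93 ± 0.05 against 8.65 ± 0.09) was also above the controls without overlap and runx2b (6.28 ± 0.11 against 6.47 ± 0.09) below, with adjusted p of 0.417 and 0.414, and 37.5% of all genes had no overlap.

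Spp1 belongs to the secretory calcium-binding phosphoproteins, as do the scpp genes of tooth and enamel matrix. Of the tooth list, 2 of 11 genes rose at 20 dpf (10.1% of all genes), scpp1 (2.22, adjusted p = 1.97e-05) and scpp5 (1.68, adjusted p = 0.000431). The mean signal of this list was 6.53 to 6.65 with the knockdown and 6.06 to 6.26 in the controls. Its median difference was 0.10, and 9 of the 11 genes did not pass. Ambn (ameloblastin) read lower with the knockdown, 4.79 to 4.97 against 5.15 to 5.55, both under 6.06. Macrophages also make osteopontin. Their list and that of neutrophils overlapped between the groups (6.42 to 6.51 against 6.36 to 6.54), and 0 of 18 genes passed (14.5% of all genes). The macrophage gene mpeg1.1 averaged 6.75 ± 0.19 against 6.61 ± 0.25. The mean signals of cartilage (7.67 to 7.68 against 7.43 to 7.56) and bone matrix (7.74 to 7.79 against 7.57 to 7.70) were also higher with the knockdown without overlap. Gene by gene, 6 of 31 bone matrix genes rose and 4 fell (10.1% and 4.31% of all genes), with a median difference of 0.02. Of the 23 cartilage genes 1 rose. The signals of fibroblasts (8.34 to 8.47 against 8.25 to 8.56) and osteoclasts (6.68 to 6.83 against 6.78 to 6.83) overlapped. Liver genes had a mean of 5.43 to 6.49 with the knockdown against 5.28 to 5.45, also overlapping, and 4 of 16 rose (10.1% of all genes). The part of any of these tissues or cells in the spp1 difference was not tested.

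At 30 dpf no gene passed, but 9 of 10 were lower in the knockdown heads and bglap alone was higher. The median difference was -0.20, against -0.04 over all genes. For 7 genes, sp7, runx2a, spp1, sparc, entpd5a, acp5a and phex, every knockdown array lay below every control, where 14.4% of all genes did. Of these 7, only sp7 had a 95% interval of the difference wholly below 0: 7.86, 7.86 and 8.02 against 8.38, 8.44 and 8.23, a difference of -0.44 (95% interval -0.75 to -0.13, adjusted p = 0.213). Bglap read 9.72, 8.71 and 8.86 against 7.80, 8.89 and 8.24, an overlap through 1 control array, with a difference of 0.78 (95% interval 0.16 to 1.4, adjusted p = 0.286). For ctsk the difference was -0.01 (95% interval -0.37 to 0.36).

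Whether the knockdown difference changed with age was tested for each gene over the 5 ages together. It did for phex (adjusted p = 0.00302), spp1 (0.00653) and sparc (0.0181), 3 of 10 genes, a count close to the share of 31.7% over all genes. Sp7 came close (0.0557) and passed in 7 of 30 fits that left out an array, while sparc failed without replicate 2 of the controls or of the knockdown heads of 10 dpf (adjusted p up to 0.0757). The differences between neighbouring ages share arrays with each other. The phex difference rose by 0.93 from 5 to 10 dpf (SE 0.19, adjusted p = 0.00148, 6.18% of genes) and the call held with any array left out. All control arrays of 5 dpf carried the visceral signal, so leaving out an array did not remove it. Its part in this change and in the test over the 5 ages was not tested.

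From 10 to 15 dpf the knockdown difference fell by 0.71 on the log2 scale for sparc (SE 0.18, adjusted p = 0.0128, 4.26% of genes) and by 0.57 for phex (adjusted p = 0.0484). The former was lost in 2 of 12 fits that left out an array, without knockdown replicate 2 of 10 dpf or 1 of 15 dpf (adjusted p up to 0.0539), and the latter in 8 of 12. From 15 to 20 dpf it rose for entpd5a by 0.94 (SE 0.30, adjusted p = 0.0282, 9.25% of genes), which was lost in 7 of 12 such fits. From 20 to 30 dpf it fell for spp1 by 1.33 (SE 0.31, adjusted p = 0.00751, 6.13% of genes), and that call held in all 12.

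The wider set of bone matrix and mineralisation genes held 31 measured of 40 listed. With the knockdown, 2 fell at 5 dpf (6.51% of all genes fell), 5 rose at 10 dpf (1.76% rose) and 6 fell at 15 dpf (2.84% fell). At 20 dpf 6 rose and 4 fell (10.1% and 4.31%), and at 30 dpf 1 fell (0.637%). Its median differences were -0.06, 0.21, -0.03, 0.02 and -0.09, against 0.02, 0.04, 0.08, -0.01 and -0.04 over all genes. At 10 dpf both col1a1 genes, of type I collagen, rose, col1a1a by 0.83 (adjusted p = 0.0169) and col1a1b by 0.65 (adjusted p = 0.0118). The col1a1a arrays overlapped, 9.71 to 10.53 with the knockdown against 8.86 to 9.92. Those of col1a1b nearly met, 8.85 to 9.49 against 8.30 to 8.84. The collagen 3-prolyl hydroxylase p3h1 rose by 0.84 and phospho1, a phosphatase that supplies phosphate for mineral, by 0.63, though from a signal of 5.15. At 20 dpf every knockdown array lay below every control for the type I collagen genes, where 16.9% of all genes did. These were col1a1a (11.44 to 11.62 against 12 to 12.13), col1a1b (10.35 to 10.53 against 10.91 to 11.11) and col1a2 (10.33 to 10.48 against 10.69 to 10.95). At 30 dpf col1a1b fell by 0.64 on the log2 scale (adjusted p = 0.0199), from 11.61, 11.42 and 11.68 to 10.81, 10.84 and 11.15.

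The collagen chaperone serpinh1b and the prolyl hydroxylation partners p3h1 and crtap changed sign between 15 and 20 dpf. Serpinh1b read 8.53, 9.46 and 9.46 in the 15 dpf controls against 6.82, 6.96 and 7.66 with the knockdown, a difference of -2.0 (SE 0.25, adjusted p = 2.52e-05). At 20 dpf it read 8.45, 7.75 and 8.56 against 10.07, 10.15 and 10.27, a difference of 1.91 (adjusted p = 8.54e-06). For p3h1 the differences were -0.55 and 1.07, and for crtap -0.82 and 1.08, all passing. In the controls the means of these 3 genes were lower at 20 than at 15 dpf, and in the knockdown heads they were higher, a course that none of the 10 marker genes had.

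**Figure D3:**
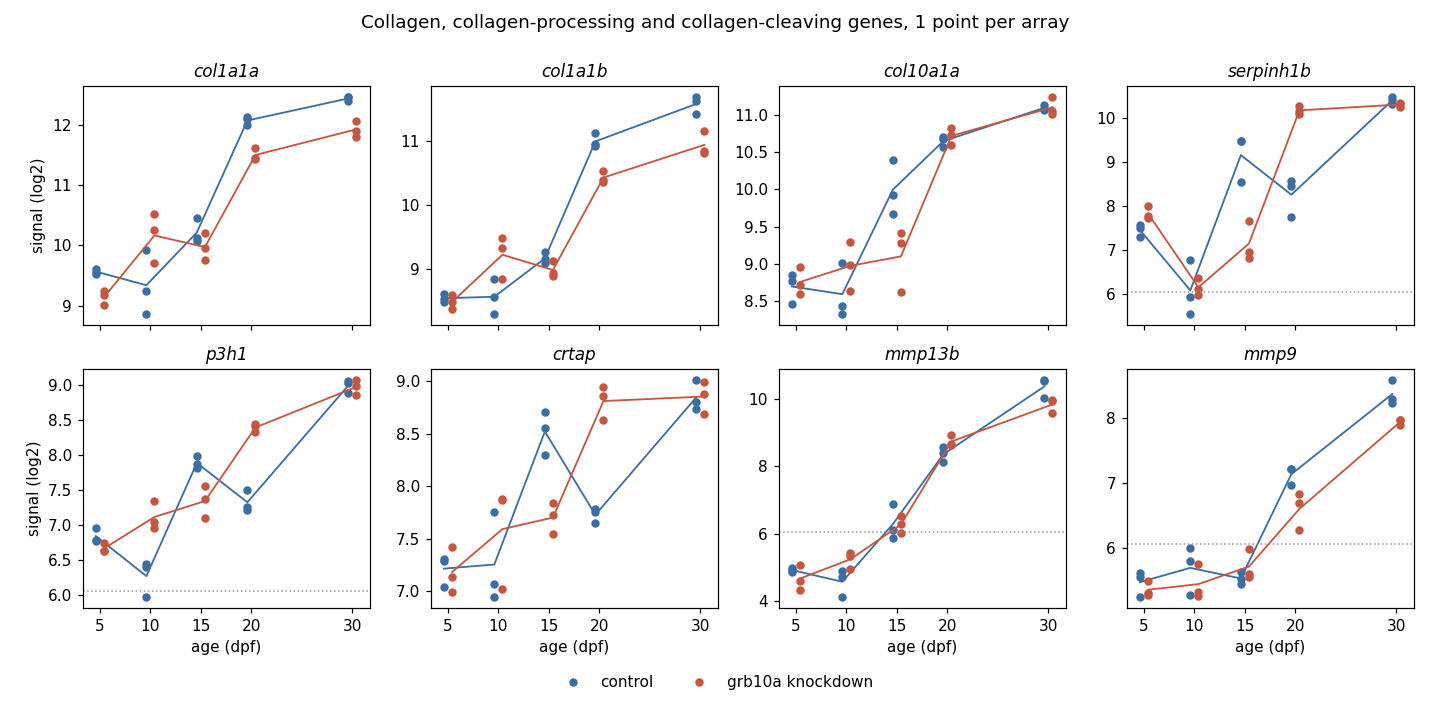
Log2 signal (vertical axis, a different range in each panel) against age in days post fertilisation for 8 collagen, collagen-processing and collagen-cleaving genes, 1 point per array, control in blue, knockdown in red, lines through the group means and a dotted line at 6.06. The control means of serpinh1b, p3h1 and crtap go down from 15 to 20 dpf while the knockdown means go up, and col1a1b is lower in all 3 knockdown arrays at 30 dpf.

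Over age, 21 of these 31 genes rose and 1 fell in the controls between 5 and 30 dpf, and 23 rose and 0 fell in the knockdown heads, with medians of 1.12 and 0.99. Over all genes 34.1% rose and 16.8% fell in the controls between these ages, and 30.6% rose and 20% fell in the knockdown heads. The type I collagen genes col1a2, col1a1b and col1a1a rose by 3.15, 3.02 and 2.88 in the controls. Of the osteoblast regulators, 49 measured of 58 listed, 16 rose and 8 fell in the controls, with a median of 0.14 against 0.13 over all genes, and 12 rose and 7 fell in the knockdown heads. Cbfb, the partner protein of Runx2, rose by 1.14 in the controls and 1.00 in the knockdown heads. Vdrb, a vitamin D receptor, fell by 1.56 and 1.70 on the log2 scale.

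Of the 49 regulators, with the knockdown, 1 fell at 5 dpf (6.51% of all genes fell), 2 fell at 10 dpf (0.917%), 3 rose at 15 dpf (9.18% rose), 1 rose at 20 dpf (10.1%) and none passed at 30 dpf (1% passed). Cyp24a1, which breaks down active vitamin D, fell by 1.92 on the log2 scale at 5 dpf (adjusted p = 8.23e-05), where visceral genes were high in the controls, and by 1.28 at 10 dpf (adjusted p = 0.024). Its 10 dpf control arrays spread widely, from 6.94 to 9.03, against 6.46 to 6.81 with the knockdown. At 15 dpf its knockdown arrays (6.51 to 6.81) lay above all controls (5.74 to 6.11), where 21.3% of all genes did. Vdrb fell by 0.75 on the log2 scale at 10 dpf (adjusted p = 0.0202) and rose by 0.85 at 15 dpf (adjusted p = 0.00274).

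Genes of osteoclast formation and resorption, 38 measured of 39, included 18 that rose and 2 that fell in the controls from 5 to 30 dpf, with a median of 0.33. In the knockdown heads 15 rose and 4 fell. The shares over all genes were 34.1% rising and 16.8% falling in the controls, and 30.6% and 20% in the knockdown heads. The collagenase mmp13b rose by 5.45 in the controls, from a signal of 4.92, and the gelatinase mmp9 by 2.89. The receptor for the osteoclast-inducing cytokine RANKL, tnfrsf11a, rose by 1.63. The genes of the cytokine (tnfsf11) and of its decoy receptor (tnfrsf11b) lay under 6.06 in all groups.

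With the knockdown, 2 of these 38 genes rose at 5 dpf (5.47% of all genes rose), 0 passed at 10 dpf (2.68%), 2 rose at 15 dpf (9.18% rose), 2 fell at 20 dpf (4.31% fell) and 1 fell at 30 dpf (0.637% fell). The proton pump subunit tcirg1a rose at 5 dpf (0.60, adjusted p = 0.0346) and at 15 dpf (0.75, adjusted p = 0.01). Mmp9 fell at 20 dpf by 0.54 on the log2 scale (adjusted p = 0.0336), and ca2, a carbonic anhydrase, fell at 30 dpf by 0.47 (adjusted p = 0.0405). Ctsk and acp5a passed at none of these ages.

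The signals of other marker lists moved over the same period. Between 5 and 30 dpf the macrophage and neutrophil signal went from 6.10 to 6.12 in the controls to 6.74 to 6.90, and mpeg1.1 from 5.71 ± 0.11 to 7.53 ± 0.37. Of the 18 genes of this list 8 rose and 2 fell (34.1% and 16.8% of all genes), with a median of 0.29. Mpx, of the same list, averaged 6.22 ± 0.09 at 5 dpf and 5.92 ± 0.25 at 30 dpf. The fibroblast signal went from 7.38 to 7.48 to 8.86 to 9.02, and the tooth signal from 6.70 to 6.79 to 7.65 to 7.91. At 10 dpf the controls read lower than at 5 dpf for tooth (5.69 to 5.85) and for macrophages and neutrophils (5.59 to 5.85). The cartilage signal of the controls also dropped, from 7.51 to 7.73 at 5 dpf to 6.84 to 7.34 at 10 dpf. Of its 23 genes, 13 fell and 1 rose over this step (14.7% and 13.8% of all genes). The tooth signal of the 5 dpf knockdown heads was 6.15 to 6.4, with 3 of 11 genes fallen (6.51% of all genes). The part of the visceral signal of the 5 dpf controls in this was not tested. At 30 dpf the tooth signal was lower with the knockdown, 7.24 to 7.43, with 3 of 11 genes fallen (0.637% of all genes), ambn (ameloblastin) by 2.04 on the log2 scale (adjusted p = 2.61e-08). The bone matrix signal (8.11 to 8.13 against 8.23 to 8.29) and the osteoclast signal (6.88 to 6.96 against 7.01 to 7.10) were also lower there without overlap. So were the signals of cartilage (7.80 to 8.0 against 8.02 to 8.09), fibroblasts (8.77 to 8.82 against 8.86 to 9.02), notochord (5.39 to 5.56 against 5.57 to 5.70) and osteoblast regulators (6.68 to 6.77 against 6.78 to 6.80). The mean signal of the 10 marker genes overlapped (8.37 to 8.53 against 8.52 to 8.56), as did that of macrophages and neutrophils. None of the 23 cartilage, 13 fibroblast or 7 notochord genes passed singly at 30 dpf, where 1% of all genes did.

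**Figure D4:**
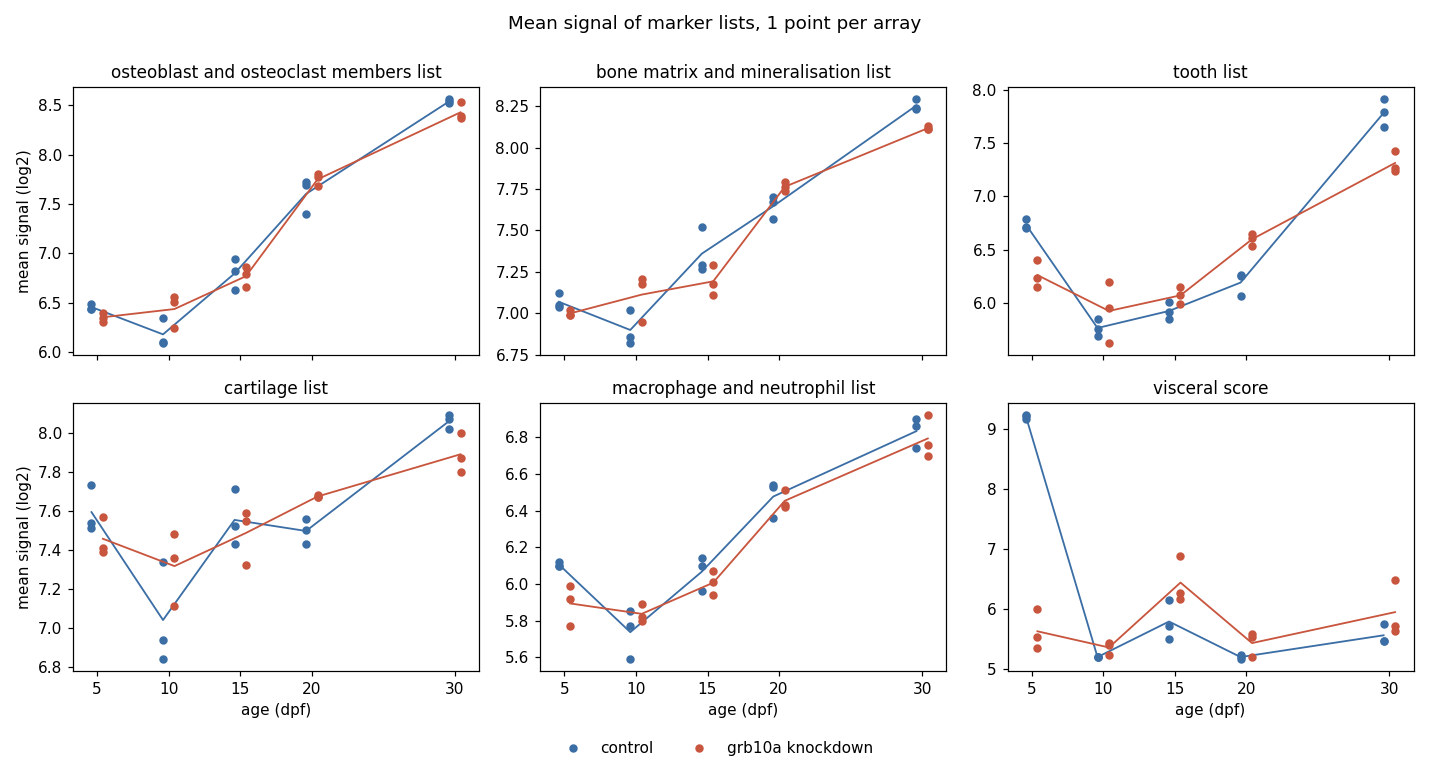
Mean log2 signal of the 10 genes and of 5 marker lists (vertical axis, a different range in each panel) against age in days post fertilisation, 1 point per array, control in blue, knockdown in red, lines through the group means. The visceral panel shows the 5 dpf controls at 9.17 to 9.23, apart from all other arrays. The tooth panel shows the knockdown mean above the controls at 20 dpf, where 2 of 11 genes rose, and below at 30 dpf, where 3 fell.

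Signals of the 10 genes were correlated across ages and less so within groups. Over the 30 arrays, which share the ages, their pairwise correlations ran from 0.55 (runx2a with phex) to 0.94 (sp7 with entpd5a, and spp1 with acp5a). Once group means were removed they ran from -0.53 (sp7 with bglap) to 0.70 (spp1 with phex). The latter are correlations of deviations within groups of 3.

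The genes whose signal was most like that of each of the 10 over the 30 arrays, by Pearson's r, included genes of muscle, lens, blood and connective tissue. Sparc was closest to col6a2 (r = 0.98), a fibroblast collagen gene, and ctsk to cldn19, pcolcea and col5a2a (0.96 to 0.97), of which the latter pair serve collagen. Runx2b was closest to aspn, postnb and pdca (0.92 to 0.93), and runx2a, with the lowest likeness, to nfic, kremen1 and ddr2a (0.87 to 0.88). Spp1 was closest to mybpha, fli1rs and coro1a (0.97 to 0.98), the last a gene of blood cells, and acp5a to spp1 itself (0.94). Bglap was closest to tnni2a.3, a troponin, and crybb2, a lens crystallin (both 0.96), and phex to the muscle genes myoz2a, pdlim3b and sh3bgr (0.96). Sp7 was closest to bgna and alas2 (0.96), and entpd5a to tfr1a, ccl25b and scinlb (0.97).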

How the data were processed

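RNA of 30 pools was hybridised to Affymetrix ZebGene 1.0 ST arrays (WT PLUS kit, per the labels). The deposited values are log2 RMA signals (the submitters' processing notes name RMA, without version or settings). Of 75212 probe sets, 20856 carried 1 symbol, 805 several and 53551 none here; 20373 of the named were matched to current symbols. The brightest probe set per symbol gave 19298 genes. Group means were fitted with limma 3.58.1 in R 4.3.3 over all 30 arrays (20 residual and 6.04 prior degrees of freedom), two-sided, with Benjamini-Hochberg adjustment over all genes of a contrast, at 0.05. The method was tested on simulated data. Figures used matplotlib 3.10.9. The 10 genes and all lists were chosen with earlier results of these data known. Of other lists at most 4 genes with the smallest p per contrast are named, and per marker gene the 3 most alike genes. The leave-one-array-out fits of the steps between ages and of the changes in knockdown difference were added later. Replicate numbers were not used to pair arrays (correlations of deviations from -0.12 to 0.28, over 0.1 in 4 of 15 pairs). Still, 19 of 30 arrays correlated best with their own number. No sequences are shown.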

Additional observations from a re-analysis of the deposited data

Results flagged for a closer look

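The knockdown minus control difference changed over the 5 ages for 3 of the 10 genes by the limma F test, which 31.7% of all genes passed. The count was thus close to the share over all genes and does not set the 10 genes apart. The adjusted p was 0.00302 for phex, 0.00653 for spp1 and 0.0181 for sparc. The 5 dpf controls, which carried the visceral signal, entered this test, and the part of that signal was not tested. Phex was higher with the knockdown at 10 dpf and spp1 at 20 dpf, and neither difference passed at any other age. Sparc was higher at 10 dpf, and its F test missed the threshold without replicate 2 of either group of that age.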

How the results depend on the processing

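With 3 arrays per group, differences near 0.5 on the log2 scale stood at the edge of detection. All rises from 5 to 30 dpf kept their calls, 10 of 10 genes in either treatment in each fit that had them; runx2b, bglap and acp5a gave no value when dim genes were left out. With an array left out, the knockdown count ranged from 0 to 0 (5 dpf), 0 to 2 (10 dpf), 0 to 1 (15 dpf), 1 to 1 (20 dpf) and 0 to 0 (30 dpf). The age counts stayed 10 to 10, the mean over ages 0 to 0, and the F test gave 2 to 5 (5 without control replicate 1 of 15 dpf). At 5 dpf 1 gene, acp5a, passed under a second quantile normalization, median centring, array quality weights and a fit of the compared arrays alone (0.47 to 0.61). At 10 dpf 0 passed in the compared arrays alone. At 15 dpf 0 passed there, under median centring and with a replicate block (entpd5a -0.65, adjusted p = 0.0523), which changed no other call of these comparisons. The F test called 5 genes under array quality weights. Genes without overlap at 15 dpf numbered 2 after quantile normalization and 1 after median centring, against 0. The cause was not tested. Median centring moved the split of higher to lower calls over all genes by over 10 percentage points in 6 contrasts: from 2656 to 2836 into 3538 to 2159 between 5 and 10 dpf in the controls, from 2677 to 2065 into 2006 to 2446 between 10 and 15 dpf, from 1613 to 781 into 2431 to 489 between 15 and 20 dpf, from 1771 to 549 into 2534 to 354 for the knockdown at 15 dpf from 1314 to 822 into 1593 to 541 for the change of its difference from 10 to 15 dpf, and from 1786 to 2225 into 1348 to 3101 for that from 15 to 20 dpf. Replicate numbers were not used as pairs, and 4 of 15 pairs correlated over 0.1. Among the 3 arrays of the other treatment at its age, 19 of 30 arrays correlated best with their own number. That is a hint of pairing from the data and not from the design, and it was not tested.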
